A study of Mus musculus with 2 samples.

Results

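Lung B cells were studied here as 1588 of 15520 cells that passed the quality filters, chosen by their UMIs (unique molecular identifiers, each standing for 1 captured transcript molecule). Cells passed with 500 genes or more and with mitochondrial UMIs of no more than 20%. It was selected on at least 3 UMIs of Cd79a, Cd79b and Ms4a1 together, from at least 2 of these genes, and on no UMI of the T cell genes Cd3e, Cd3d and Cd3g, the myeloid gene Csf1r, the endothelial gene Cdh5 or the epithelial gene Epcam.

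The scRNA-seq libraries came from whole lungs of C57BL/6 mice aged 2 weeks, with no genetic alteration named in the labels. One group breathed room air with 21% O2 and the other was raised under 80% O2 (hyperoxia) between P0 and P14. Lungs of 8 mice were pooled into 1 library per group (10x 3′ chemistry). With 1 library per group, no replicates exist, so no test between groups was possible and no p-value is given. All intervals below are 95% intervals covering counting error only, so they leave out how mice, lungs and library preparations vary.

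B cells develop in the bone marrow, and in the fetus in the liver, by rearranging their immunoglobulin genes in steps. Precursors carry a pre-B cell receptor built with the surrogate light chain proteins encoded by Vpreb1, Vpreb2 and Igll1, whereas mature B cells carry an antigen receptor that signals through CD79A and CD79B and present antigen on MHC class II. In the lung, mature B cells circulate through the vessels and settle in the tissue, where they can form lymphoid follicles after birth.

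In room air, 368 of 3809 cells were B cells (9.66%, exact Clopper-Pearson interval 8.74 to 10.6), and in hyperoxia 1220 of 11711 (10.4%, 9.87 to 10.985). The difference of 0.756 percentage points had an interval of -0.369 to 1.84, so a difference in share was not detectable at this depth. With 6 more exclusion genes the difference was 0.856 points (0.131 to 1.53). T cells, taken by at least 2 UMIs of the Cd3 genes with none of the B cell, Csf1r, Cdh5 and Epcam genes, made up 5.36% of cells in room air and 8.16% in hyperoxia. There were therefore 1.80 B cells per T cell in room air (interval 1.52 to 2.15) and 1.28 in hyperoxia (1.17 to 1.39), a ratio of 0.71 (exact conditional interval 0.58 to 0.86). With 6 more exclusion genes this ratio was 0.74, with an interval of 0.53 to 1.02 that includes 1. The library totals differed, with 39593888 UMIs in 4234 barcodes in room air and 111934936 in 13223 barcodes in hyperoxia. The libraries shared 17 barcodes, of which 1 was a room air B cell and 0 were hyperoxia B cells.

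The genes used for selection describe the cells and support nothing further. Among cells that met the marker minimum, 97 of 465 in room air and 360 of 1580 in hyperoxia were left out for a UMI of 1 of the 6 exclusion genes, most often Cdh5 (52 and 178 cells). The median B cell held 27 marker UMIs in room air and 18 in hyperoxia. At the threshold, 2 room air and 10 hyperoxia cells had exactly 3 marker UMIs and were kept, while 3 and 15 cells had 2 marker UMIs, 1 from each of 2 genes, and fell just outside. Pax5 was detected in 0 and 5 of the cells just inside and in 1 and 5 of those just outside.

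Pax5, which the selection did not use, encodes the transcription factor that holds cells to the B lineage (ENSMUSG00000014030, GRCm38 chr4:44524757-44710487). Its level was 325 CPM (UMIs of a gene per summed UMIs of the cells, scaled to a common total) in room air B cells (exact Poisson interval 301 to 349.8) and 460.4 in hyperoxia B cells (441 to 480.0). All other cells together held 6.73 and 6.88 CPM. Thinned to 1000 UMIs per cell, 29.2% of room air B cells (24.5 to 34.1) and 39.9% of hyperoxia B cells (37.2 to 42.7) had a Pax5 UMI, against 73.1% and 75.8% without thinning. Thinning left out 1 room air and 5 hyperoxia B cells. In Cdh5 endothelial cells (ECs), which should lack Pax5, the thinned shares were 0.118% and 0.223%, with median depths of 7655 and 9009 UMIs per EC.

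A further B lineage gene outside the selection was also far above the rest of the lung. Ebf1, a factor that acts with Pax5, stood at 1582 and 1552 CPM in room air and hyperoxia B cells, against 89.2 and 64.5 in all other cells. The 10 genes with the highest ratio of B cells over all other cells were Gm43291, Ly6d, Ms4a1, Cd79a, Pax5, Mzb1, Cd79b, Pou2af1, Fcrla and Vpreb3, 3 of which chose the cells.

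B cells of the hyperoxia library were shallower. The median was 4592 UMIs per B cell in room air (quartiles 3385 and 6460) and 2975.5 in hyperoxia (2431 and 3850), a ratio of 0.65. T cells also differed, with medians of 6711.5 and 5032.5 UMIs, whereas ECs held more UMIs in hyperoxia. At 1000 UMIs per cell, the median number of genes was 586 in room air B cells and 609 in hyperoxia B cells, against 1724.5 and 1347.5 without thinning.

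Across 3047 genes with a mean of at least 50 CPM over the 2 libraries, 29 were at least 2-fold higher in hyperoxia B cells (0.952% of the genes) and 15 at least 2-fold lower (0.492%). On the log2 scale, the ratio of the hyperoxia to the room air value had a median of 0.08, with quartiles of -0.09 and 0.25. Of all these genes, 62.9% were above 0 and 37.1% below, which is the background for the counts of list members with at least 50 CPM above or below 0. For 9 of the 29 higher genes, over 50% of the hyperoxia UMIs lay in 1 cell, and 22 of the 29 were at least 2-fold higher once the cell with the most UMIs of each gene was left out of each library. With the 50 CPM minimum applied again in that setting, 26 genes were higher, 18 of them among the 29, and 13 lower, 13 of them among the 15. With likely doublets removed, 18 genes were higher, 14 of them among the 29, and 31 lower, 13 of them among the 15. Among B cells with 2000 to 6000 UMIs, 16 genes were higher, 3 of them among the 29, and with 6 more exclusion genes 40 were higher, 8 of them among the 29. Without B cells that held 30 or more UMIs of any 1 marker gene of another cell type, 20 genes were higher, 10 of them among the 29, and 12 lower, 11 of them among the 15.

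The genes of immature and precursor B cells were higher in hyperoxia for 11 of 12 list members detected in both libraries, with a median log2 ratio of 1.36. No share over all genes detected in both libraries is given here, so that count stands without a background. Only 5 of the 12 reached 50 CPM, and 4 of these were above 0, where 62.9% of all genes at that level were. Of the 5, 1 was at least 2-fold higher, where 0.952% of all genes were. This was Cd93, which reached the minimum only through hyperoxia (35.0 and 83.8 CPM), so the counts of the 5 are a description only. The median of the 5 was 0.63, beside 0.08 for all genes. Vpreb1 (ENSMUSG00000059305, chr16:16868403-16870843) was at 15.6 CPM in room air (10.7 to 21.9) and 69.4 in hyperoxia (62.1 to 77.3), a log2 ratio of 2.15 (1.64 to 2.72). Igll1 (ENSMUSG00000075370, chr16:16860671-16863985), which encodes the partner of VPREB1 in the surrogate light chain, was at 9.92 (6.14 to 15.2) and 50.2 CPM (44.0 to 56.9). Rag1, part of the enzyme that cuts immunoglobulin genes for rearrangement, was at 28.3 (21.6 to 36.5) and 60.8 CPM (54.1 to 68.2). These intervals treat UMIs as independent, but in room air the UMIs of Vpreb1 and Igll1 lay in few cells. Among the room air cells with precursor genes defined below, 3 cells held 30 Vpreb1 UMIs and 3 cells held 21 Igll1 UMIs.

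In T cells Rag1 was lower in hyperoxia, with 65.1 CPM in room air and 10.8 in hyperoxia. Il7r, the receptor for the growth factor of lymphoid precursors, had a log2 ratio of 1.45 in B cells (1.01 to 1.92) and 0.72 in T cells. Cd93, a surface marker of immature B cells that ECs also make, was at 35.0 (27.5 to 43.9) and 83.8 CPM (75.8 to 92.5) in B cells and stood at 13.5 and 12.2 CPM in T cells. Vpreb3 (chr10:75943057-75949657), which binds newly made immunoglobulin chains, was the most abundant of these genes that differed, at 473 (444 to 503) and 788 CPM (763 to 814). Ly6d, the most abundant member of the list, had a log2 ratio of -0.03.

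Few cells carried Vpreb1 and Igll1. Cells with at least 2 of Vpreb1, Vpreb2, Igll1, Rag1, Rag2 and Dntt, a definition set after the values were seen, numbered 7 of 368 in room air (1.90%, 0.768 to 3.88) and 35 of 1220 in hyperoxia (2.87%, 2.01 to 3.97). Thinned to 1000 UMIs, the shares were 0.545% (0.0661 to 1.95) and 1.81% (1.14 to 2.73). The intervals overlapped at both depths. A share in a cell type that lacks these genes was given by ECs, of which 0% in room air (upper limit 0.433%) and 0.134% in hyperoxia (upper limit 0.391%) had a Vpreb1 UMI after thinning, against 0.817% and 1.89% of B cells. Without thinning, 1.36% and 2.54% of B cells had one. The cells defined by these genes had median depths of 3176 and 5330 UMIs.

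These cells differed from the rest in genes that the definition did not use. In hyperoxia, Vpreb3 was at 2598 CPM in the 35 cells and 658 in B cells with fewer than 2 of the 6 genes and without Mki67 or Top2a. H2-Aa, an MHC class II chain, was at 62.3 CPM in the 35 cells and 1651 in the others. The 20 of the 35 cells without Mki67 or Top2a held 4546 CPM of Vpreb3 and 34.8 of H2-Aa. Of the 35 cells, 15 held a UMI of the cell cycle genes Mki67 or Top2a, and of the 7 room air cells 1 did. The 15 cells had a median depth of 12676 UMIs, and the 1 room air cell held 34921. After thinning to 1000 UMIs, 22 hyperoxia and 2 room air cells met the precursor definition, and 4 and 0 cells also had Mki67 or Top2a.

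**Figure D1:**
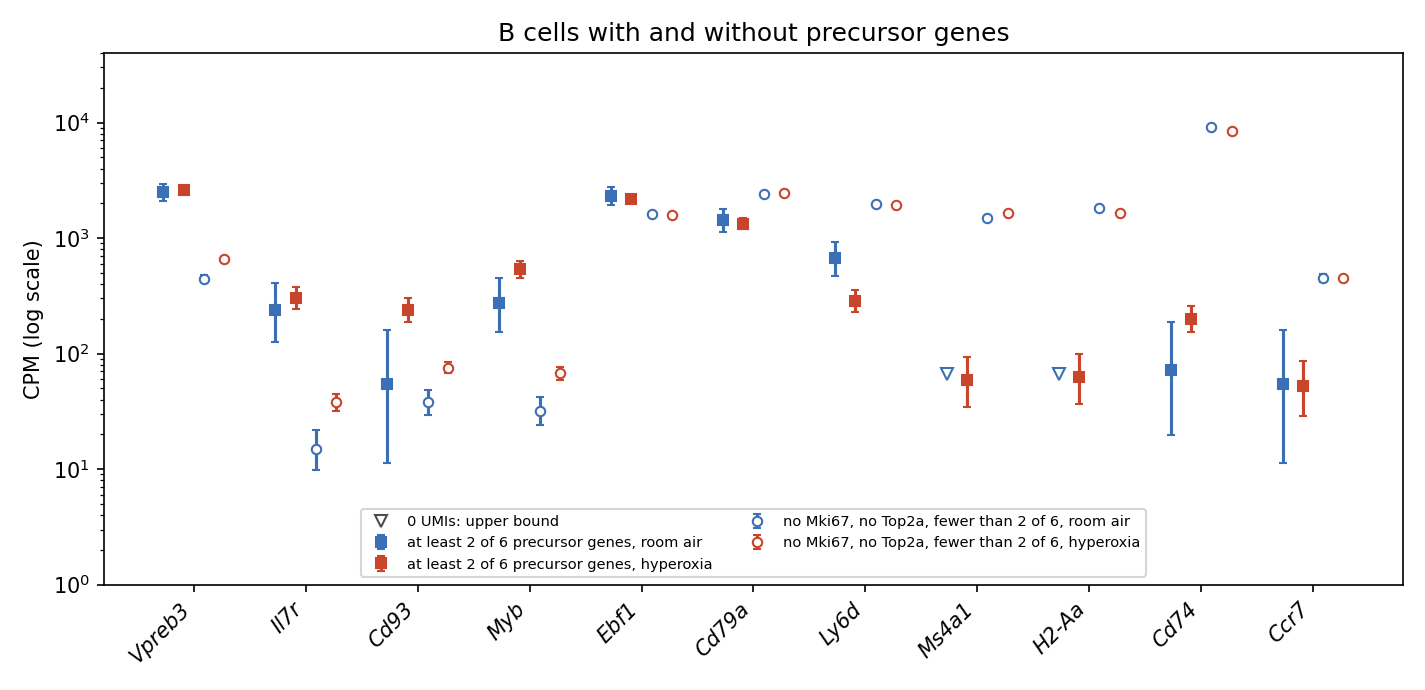
CPM (log scale) of 11 genes in B cells with at least 2 of 6 precursor genes (squares) and in B cells with fewer than 2 of them and without Mki67 or Top2a (open circles), for room air (blue) and hyperoxia (red), with 95% Poisson intervals and, for 0 UMIs, the upper bound. H2-Aa, Cd74 and Ccr7 are lower in the cells with precursor genes in both libraries, while Cd79a and Ms4a1 were used to select the cells and are shown as a description. Myb was chosen after its values were seen.

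Outside these cells the genes also differed. Among B cells with fewer than 2 of the 6 genes and no Mki67 or Top2a, hyperoxia values divided by those in room air gave 2.00 for Cd93 (1.52 to 2.65), 2.53 for Il7r (1.66 to 4.01) and 1.48 for Vpreb3 (1.36 to 1.60). The sizes moved with the processing. The log2 ratio of Vpreb1 was 1.21 as a mean over cells, 0.82 among B cells with 2000 to 6000 UMIs, 0.65 with 6 more exclusion genes and 3.99 without the top cell of each library. Without the cells with precursor genes it was -0.71, which the definition itself brings about. Igll1 had 1.26, 1.05, 0.43 and 4.58 in the first 4 of these settings. The values without the top cell rest on few room air UMIs. Of the room air cells with precursor genes, 3 held 30 Vpreb1 UMIs and 3 held 21 Igll1 UMIs. Among B cells with 2000 to 6000 UMIs, Rag1 had 0.45 and Vpreb3 0.15, and with 6 more exclusion genes Il7r had 2.21.

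Cell cycle genes were higher in hyperoxia B cells for 14 of 14 list members, and 6 of 6 above 50 CPM, where 62.9% of all genes were above 0. For the 14, no share over all detected genes is given. Of the 6, 0 were at least 2-fold higher, and their median log2 ratio was 0.61. The same 6 genes had a median of -0.16 in T cells and -0.62 in ECs. Mki67 stood at 68.5 (57.8 to 80.6) and 117 CPM (107 to 127), and Stmn1, which encodes a microtubule regulator, at 143 (127 to 159.7) and 243 CPM (229 to 257). The histone gene Hist1h1b was at 32.6 (25.4 to 41.3) and 109 CPM (99.98 to 119), with log2 ratios of 1.74 in B cells and -0.67 in T cells. Without the cells with precursor genes, the log2 ratio of Mki67 was 0.03, that of Top2a -0.09 and that of Hist1h1b 0.63. Among B cells with 2000 to 6000 UMIs, the 3 genes had 2.94, 1.53 and 4.41, but Mcm5 turned to -0.20. Across all settings, the lowest log2 ratios of Pcna and Mcm6 were -0.22 and -0.43. With 6 more exclusion genes Mki67 had 4.55, Top2a 3.60 and Stmn1 2.19, and without cells with 30 or more UMIs of another marker Stmn1 had 1.52 and Hist1h1b 2.47. The setting with 6 more exclusion genes left 131 room air and 503 hyperoxia B cells. UMIs per gene in these settings are not given here, so the sizes of these ratios are uncertain. Hist1h1b had 69 UMIs in 7 room air cells and 522 in 39 hyperoxia cells, 129 of them in 1 cell, so its ratio is uncertain.

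The share of B cells with a UMI of Mki67 or Top2a was 9.24% in room air (6.48 to 12.7) and 8.52% in hyperoxia (7.02 to 10.2). Thinned to 1000 UMIs, it was 2.18% (0.946 to 4.25) and 4.53% (3.43 to 5.85), with overlapping intervals. The share with at least 2 of Mki67, Top2a, Cdk1, Birc5, Ube2c and Ccnb2 was 1.63% (0.60 to 3.51) and 4.18% (3.13 to 5.46). After thinning, that stricter share was 0.82% (0.17 to 2.37) and 2.63% (1.81 to 3.70). Its intervals also overlapped at both depths. In ECs, Mki67 alone was found in 2.70% and 1.43% of cells after thinning, against 1.36% and 2.80% of B cells, so ECs do not serve as a type that lacks it.

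Among 11 genes of the p53 and DNA damage response, Cdkn1a, an inhibitor of cyclin-dependent kinases, had the highest ratio of those counted in both libraries. Cdkn1a (ENSMUSG00000023067, chr17:29090976-29100727) was at 26.5 CPM in room air B cells (19.99 to 34.4) and 154 in hyperoxia B cells (143 to 166), a log2 ratio of 2.54 (2.15 to 2.96). T cells had a log2 ratio of 1.01 and ECs 2.87. All 6 members above 50 CPM were above 0, where 62.9% of all genes were. Their median was 0.37, beside 0.08 for all genes. Cdkn1a, 1 of the 6, reached the minimum only through hyperoxia, so this count and median are a description only. Mdm2, which encodes the ligase that degrades p53, was at 65.2 (54.8 to 77.0) and 71.7 CPM (64.3 to 79.7), with overlapping intervals. Eda2r had 0 UMIs in room air, with an upper limit of 1.74 CPM, and 28 UMIs in hyperoxia, or 5.85 CPM (3.89 to 8.46).

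Cdkn1a UMIs were found in 27 of 368 room air B cells and 229 of 1220 hyperoxia B cells, or 7.34% and 18.8%, and 1.09% and 6.83% after thinning. The median was 1 UMI per such cell in both libraries, and the 10 highest cells held 69.6% of the Cdkn1a UMIs in room air and 37.0% in hyperoxia. All other cells together held 153 and 706 CPM of Cdkn1a, and no gated population served as one that lacks it, since 13.0% and 61.6% of ECs had a UMI after thinning. In hyperoxia, B cells with a Cdkn1a UMI held 4585 CPM of the alveolar type 2 cell gene Sftpc, and B cells without held 1649. Without the 1 cell with the most Sftpc UMIs, which held 9 Cdkn1a UMIs, these values were 1504 and 1649 CPM. In room air they were 266 and 361 CPM. Cells with a Cdkn1a UMI were deeper, with medians of 6908 against 4499 UMIs in room air and 3560 against 2906 in hyperoxia. Ms4a1, a selecting gene, was at 884 against 1444 CPM in room air and 889 against 1712 in hyperoxia. Phlda3, another p53 target gene, was at 93.0 against 5.95 CPM in hyperoxia and at 30.3 against 8.80 in room air. Without the cell with the most Phlda3 UMIs, these values were 87.2 against 5.95 in hyperoxia and 7.62 against 8.80 in room air. In hyperoxia, Bax was at 170 against 111 CPM, Ccng1 at 55.6 against 36.6 and Eda2r at 16.2 against 1.49. Trp53inp1, at 155 against 148, and Mdm2, at 71.8 against 71.7, were close to even. In room air, Mdm2 (47.1 against 68.2), Trp53inp1 (63.9 against 94.6) and Bax (101 against 104) were lower in cells with Cdkn1a. Ccng1 was higher there (40.3 against 28.6). The log2 ratio of Cdkn1a was 1.21 once barcodes with many simulated doublets among their neighbours were removed, and 1.43 without B cells that held 30 or more UMIs of any 1 marker gene of another cell type. It was 1.70 with 6 more exclusion genes. The part of doublets and of RNA from other cells in the Cdkn1a values was not tested beyond these settings.

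RefSeq promoter windows (GRCm38.p6, 250 bases before to 50 after the start) were matched for 16 of 20 genes looked up. Those of Cdkn1a and Vpreb3 are shown because these genes had the highest ratio in the p53 list and the most UMIs among the precursor genes that differed. Capitals mark ACATGT, a core of the p53 element, and the octamer ATGCAAAT known from immunoglobulin promoters, which Vpreb3 holds in its reverse form ATTTGCAT. Both strands were searched. ACATGT was found in 5.28% of all 32851 windows, at least 2 times in 0.329%, and the octamer in 1.74%. The Cdkn1a window (plus strand, chr17:29090729-29091028) held ACATGT 2 times, and the Vpreb3 window (plus strand, chr10:75948050-75948349) held 1 of each. A further window of Cdkn1a held none of these letters. These matches describe the letters only.
Cdkn1a: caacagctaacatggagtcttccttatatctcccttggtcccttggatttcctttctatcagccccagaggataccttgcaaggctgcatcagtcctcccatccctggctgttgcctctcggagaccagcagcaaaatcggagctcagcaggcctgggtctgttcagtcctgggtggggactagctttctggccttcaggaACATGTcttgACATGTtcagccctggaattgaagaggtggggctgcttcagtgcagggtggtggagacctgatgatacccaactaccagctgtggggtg
Vpreb3: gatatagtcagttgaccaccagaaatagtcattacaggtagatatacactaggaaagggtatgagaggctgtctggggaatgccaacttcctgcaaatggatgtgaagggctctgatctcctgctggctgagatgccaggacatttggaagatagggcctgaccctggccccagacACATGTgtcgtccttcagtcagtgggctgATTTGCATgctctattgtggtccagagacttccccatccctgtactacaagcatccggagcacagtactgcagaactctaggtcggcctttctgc

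Genes of the B cell antigen receptor complex had 12 members above and 11 below 0. Of 25 members, 23 had at least 50 CPM, and the median log2 ratio was 0.01. Selecting genes were not taken out of this list, so its count and median describe the cells only. Cd72, which encodes an inhibitory co-receptor, was at 94.96 (82.3 to 109) and 149 CPM (138 to 160.2). Bank1, which encodes a scaffold of receptor signalling, was at 367 (341 to 393) and 298 CPM (283 to 314). Of 18 B cell transcription factors, 17 reached 50 CPM and 14 of these were above 0, with a median log2 ratio of 0.24 in B cells and 0.20 in T cells. Bach2, which restrains plasma cell differentiation, had a log2 ratio of 0.53 (0.39 to 0.66) in B cells and 0.01 in T cells.

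**Figure D2:**
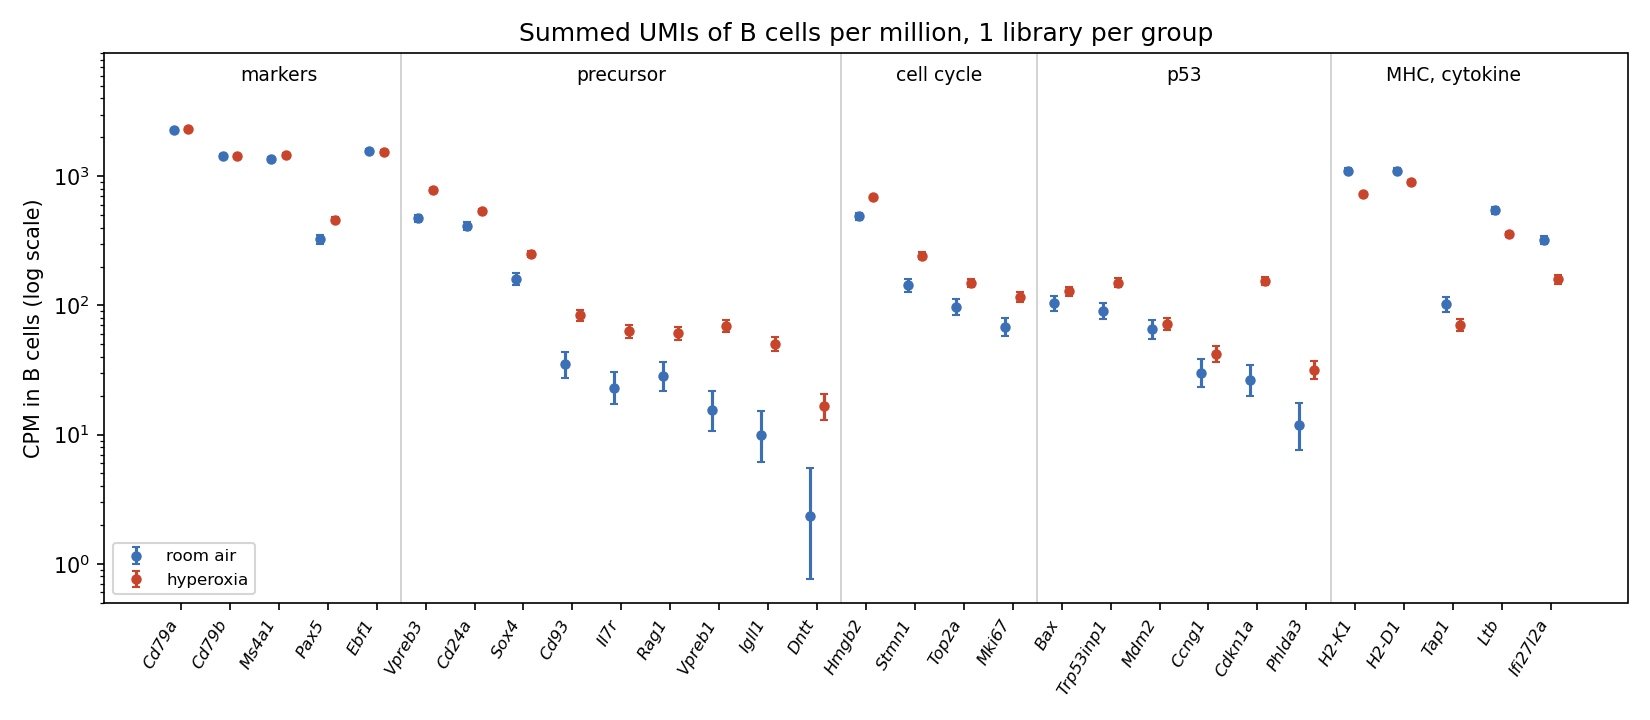
CPM (log scale) of 29 genes in room air (blue) and hyperoxia (red) B cells, with 95% Poisson intervals, 1 library per group. The selecting markers lie close together, the precursor genes and Cdkn1a are higher in hyperoxia, and H2-K1, Ltb and Ifi27l2a are lower.

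MHC class I genes were lower in hyperoxia B cells for 7 of 8 members above 50 CPM, with a median log2 ratio of -0.20. H2-K1 (ENSMUSG00000061232, chr17:33996017-34000347), a heavy chain that shows peptides to CD8 T cells, was at 1106 (1062 to 1152) and 723 CPM (699 to 747). Its log2 ratio of -0.61 compared with -0.33 in T cells and -1.22 in ECs. Class I heavy chain genes share near-identical stretches, and H2-Q7, with a log2 ratio of -1.38, and H2-K1 are uncertain for that reason.

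MHC class II genes were lower for 9 of 10 members above 50 CPM, with a median log2 ratio of -0.13. Cd74, the invariant chain, was at 8476 (8352 to 8601) and 7522 CPM (7444 to 7600). In ECs the same 10 genes had a median log2 ratio of -2.98, and in T cells 0.20. The whole list summed to 221 and 192 CPM in T cells. H2-Ob, part of a peptide-exchange regulator, was the member above 0, at 232 and 275 CPM. Across the settings, the log2 ratios of H2-Aa, H2-Ab1, H2-Eb1, H2-DMa, H2-DMb1, H2-Oa and H2-Ob fell on both sides of 0. Their highest values ran from 0.0049 (H2-Ab1) to 0.39 (H2-Ob). Cd74 and H2-DMb2 stayed below 0.

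The interferon response list had 3 of 20 members above 50 CPM, and these 3 were lower in hyperoxia, with a median log2 ratio of -0.36. Ifi27l2a, a gene induced by interferon, was at 320.3 (297 to 345) and 159 CPM (148 to 171), with log2 ratios of -1.01 in B cells and -1.05 in T cells. Of 18 members detected in both libraries, 15 were lower, a count for which no share over all detected genes is given. The cytokine gene Ltb, needed for lymphoid tissue structure, was at 545 (514 to 577) and 354 CPM (338 to 372) in B cells, a log2 ratio of -0.62, and had -0.31 in T cells.

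Of 22 immediate early genes above 50 CPM, 18 were above 0, as were 62.9% of all genes, and 0 were at least 2-fold higher. Their median log2 ratio was 0.33 in B cells, 0.19 in T cells and 0.28 in ECs. Fosb was at 91.2 (78.8 to 105) and 169.6 CPM (158 to 182), and Jun at 257 (236 to 279.5) and 455 CPM (436 to 474). Nr4a1, which responds to antigen receptor signals, had a log2 ratio of 0.65 in B cells and 0.06 in T cells. Of 10 heat shock genes, 4 were above 0, and Hspa1b was the one furthest from 0, at 436 (408 to 465) and 829.8 CPM (804 to 856), against 269 and 267 in T cells.

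The BAFF, CD40 and survival list had a median log2 ratio of 0.23 over 8 members above 50 CPM, with the BAFF receptor gene Tnfrsf13c at 199.8 and 241 CPM. The antioxidant list had 0.16 over 8 members, the homing list 0.03 over 10, and the hypoxia and glycolysis list -0.10 over 5. Follicular and B-1 genes had 2 members above 50 CPM, Fcer2a and Cd9, with log2 ratios of -0.34 and -0.27. Among B cells with 2000 to 6000 UMIs, Cd9 had 0.99 and Mzb1, a plasma cell chaperone gene, -0.29. The germinal centre and plasma cell list had 2 members above 50 CPM, Mzb1 and Xbp1, with log2 ratios of 0.30 and 0.08, and the cytokine list had a median of -0.20 over 3.

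The 10 lowest genes were taken among those whose room air level in B cells was at least 50% of that in all other cells. Genes under a mean of 50 CPM and ribosomal, mitochondrial and immunoglobulin variable genes were kept out. The 10 were Gm11808, H2-Q7, Grcc10, Gm20186, 1810022K09Rik, Crip1, Hypk, Ifi27l2a, Notch2 and Ndufa3, with log2 ratios from -1.43 to -0.89 in B cells. In T cells 9 of them were also below 0, and H2-Q7 was at 0.02. The most abundant genes were Malat1, Gm42418, Tmsb4x, Cd74, Actb, Tpt1, Fau, Eef1a1, Ptma and H3f3a, with log2 ratios from -0.28 to 0.30. Among genes with a mean of at least 50 CPM in both B and T cells, those furthest above T cells in log2 ratio were Cdkn1a, Lyz2, 2810417H13Rik, Scgb1a1 and Hist1h1b, and those furthest below were Aspn, Mfap4, Ctgf, Serping1 and Igfbp5. Ratios also differed by transcript length. Over 29 genes whose longest annotated transcript had at most 500 bases, 82.8% were below 0 in B cells, against 19.8% of genes above 8000 bases.

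**Figure D3:**
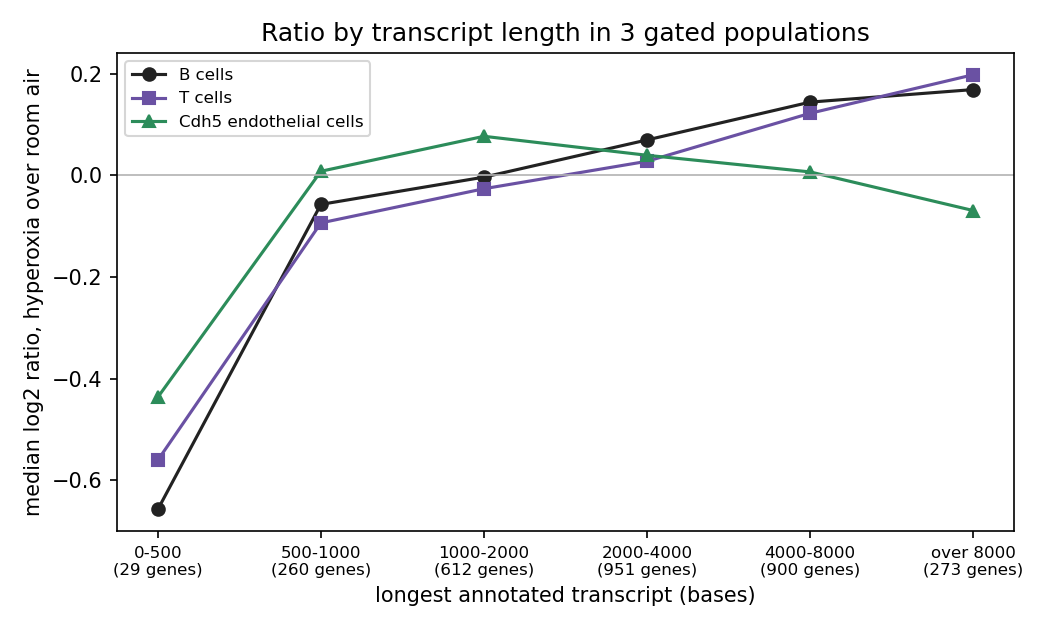
Median log2 ratio of hyperoxia over room air (vertical axis) by the length of the longest annotated transcript in bases (horizontal axis), for B cells, T cells and ECs, with the number of genes in each class. The class of at most 500 bases, with 29 genes, is lowest in all 3 populations.

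For some of the highest ratios, 1 cell held most UMIs. Jchain, which joins secreted immunoglobulin, had 11 UMIs in 6 room air cells and 846 in 7 hyperoxia cells, 570 of them in 1 cell. Its log2 ratio of 5.09 was 4.13 without the top cell of each library and 0.59 among B cells with 2000 to 6000 UMIs. The other immunoglobulin constant genes of the list were not analysed here. Hbb-bs had 3249 UMIs in hyperoxia B cells, 3182 of them in 1 cell, and Camp had 464 of 484 in 1 cell. Saa3 had 0 UMIs in room air, with an upper limit of 1.74 CPM, and 1322 UMIs in 41 hyperoxia cells, 1214 of them in 1 cell, so it was above 0 in hyperoxia alone also without that cell. Outside B cells it was also higher in hyperoxia, at 0 and 169 CPM in T cells and 5.27 and 178 in all other cells. Without the top cell of each library, Hbb-bs had a log2 ratio of -0.20 and Camp 0.34. Erdr1, a multi-copy gene and so uncertain, was spread over cells, with at most 14 UMIs per cell, and had log2 ratios of 2.57 in B cells, 3.06 in T cells and 2.74 in ECs.

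Markers of other cell types were present in the B cells of both libraries. The epithelial list, with 4 of 5 genes detected in both libraries and Epcam at 0 by selection, summed to 956 CPM in room air and 3356 in hyperoxia. Its most abundant gene in hyperoxia was Sftpc, at 2520 CPM, found in 83.2% and 91.6% of B cells, and in room air Scgb1a1, at 587 CPM. In hyperoxia 1 cell held 4414 of the 12055 Sftpc UMIs, and without the top cell of each library its log2 ratio was 2.22 in place of 2.86. The stromal list, with 5 of 5 genes, summed to 1854 and 2401 CPM, with Mfap4 the most abundant in both. The erythroid list, with 4 of 4, summed to 87.9 and 1309 CPM, led by Hbb-bs.

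The neutrophil list, with 4 of 4 genes, summed to 94.0 and 514 CPM, led by S100a9. In hyperoxia 1 cell held 1241 of the 1416 S100a9 UMIs and 1 cell 883 of the 995 S100a8 UMIs, and without the top cell of each library their log2 ratios were 0.88 and 0.38 in place of 2.51 and 2.72. The macrophage and monocyte list, with 5 of 6 and Csf1r at 0 by selection, summed to 200.8 and 432 CPM, led by Lyz2, with 720 of its 1949 hyperoxia UMIs in 1 cell. The endothelial list, with 3 of 4 and Cdh5 at 0 by selection, summed to 177 and 231 CPM, led by Pecam1, and the NK list, with 4 of 4, to 7.56 and 30.3 CPM, led by Gzma. The T cell list summed to 0 and 1.05 CPM over the 5 of 8 genes analysed here, with Cd3e, Cd3d and Cd3g at 0 by selection. The platelet list, with 2 of 2, summed to 1.42 and 5.65 CPM, led by Pf4, and the plasmacytoid dendritic list to 0 and 1.05, with Klk1 at 0. Without B cells with 30 or more UMIs of 1 such gene, the counts past 2-fold were 20 and 12, and the part of lower amounts was not tested.

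Sex-linked genes differed between the pools. Among B cells with a UMI of either Xist or a Y-linked gene but not both, 71 of room air had Xist and 172 a Y-linked gene, which puts Xist cells at 29.2% (23.6 to 35.4), and in hyperoxia 289 and 510, or 36.2% (32.8 to 39.6). The intervals overlapped in B cells. In ECs the shares were 16.7% (13.9 to 19.9) and 27.6% (25.6 to 29.7), which did not overlap. The split in B cells moved with depth. Thinned to 1000 UMIs, 49 room air B cells had Xist alone and 60 a Y-linked gene alone, against 261 and 224 in hyperoxia. Without thinning, 9 room air and 42 hyperoxia B cells held both.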

How the data were processed

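The authors deposited raw UMI counts per gene and barcode for both libraries, made with Cell Ranger on mm10. The version is given as 6.1.1 in the protocol, 2.1.1 in the processing notes and 3.1.0 in the matrix headers. Genes and barcodes were used as deposited. UMIs were summed over the B cells of each library and scaled to CPM. Ratios have exact conditional intervals, CPM exact Poisson intervals and shares exact Clopper-Pearson intervals. Thinning drew 1000 UMIs per cell without replacement. For the values given first, doublets were treated by the selection alone. An alternative removed 129 room air and 1239 hyperoxia barcodes whose neighbours were most often simulated doublets. Genes named are list members, the 10 highest and 10 lowest ratios among genes with at least 50 CPM whose B cell level, where higher, was at least 50% of that in other cells, the 10 most abundant, the 10 most specific and the 5 furthest from T cells in each direction among genes with at least 50 CPM in both. Ribosomal, mitochondrial and immunoglobulin variable genes were kept out. Members and lists were chosen with earlier results of these data known. Some list members are not reported here. The interval code was tested on summed counts simulated as Poisson, which does not cover UMIs clustered in few cells. Positions came from GENCODE M21 on GRCm38. Python 3.11.15, numpy 2.4.6, scipy 1.17.1 and scikit-learn 1.9.0 were used.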

Additional observations from a re-analysis of the deposited data

How the results depend on the processing

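Each group had 1 library, so leaving out a replicate was not possible. No paired analysis was possible because each group had a single library. The planned shares of lambda light chain and Ighd were not run, as these genes were not analysed here, nor were their alternatives. Of 8 alternatives for cell numbers, 2 of them chosen after seeing the data, the B cell share stayed higher in hyperoxia and the B to T ratio lower in each. The interval of the share difference included 0 and that of the ratio lay below 1, except with 6 more exclusion genes (0.131 to 1.53 points, and 0.53 to 1.02). With 6 more exclusion genes (Nkg7 not applied to T cells) the share was 3.44% in room air and 4.30% in hyperoxia, the median UMIs per B cell were 3859 and 2739, and their ratio was 0.71. With the gate after thinning, the B to T ratio was 2.85 and 2.11. Removing likely doublets gave a hyperoxia median of 2904 UMIs, 18 genes at least 2-fold higher and 31 lower, and at least 1000 genes with at most 10% mitochondrial UMIs gave a median of 3089. A mean over cells gave 9 lower genes and B cells with 2000 to 6000 UMIs gave 16 higher genes. A minimum of 20 CPM gave 86 higher and 28 lower genes, and one of 100 CPM gave 11 and 8. More genes passed the lower and fewer the higher minimum. For the other values the cause was not tested.

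Among named or listed genes past 2-fold, the following log2 ratios changed sign. Without likely doublets: Camp -0.063, Ctgf -0.26 and Lyz2 -0.31. With 6 more exclusion genes: Hbb-bt -2.06, Hba-a2 -1.67, Hbb-bs -0.42, Hba-a1 -0.96, Camp -0.89, Lyz2 -0.34 and Igfbp5 0.21. With 2000 to 6000 UMIs: Mcm5 -0.20, Hbb-bt -1.36, Hba-a2 -1.74, Hbb-bs -0.25, Hba-a1 -0.32, Camp -0.62 and Igfbp5 0.014. In alternatives chosen after seeing the data, they were Hbb-bt -0.87, Hba-a2 -0.97, Hbb-bs -0.20 and Hba-a1 -0.46 without the top cell of each gene, Vpreb1 -0.71 without cells with precursor genes (by construction), and Hbb-bt -0.80, Hba-a2 -0.91, Hbb-bs -0.19, Hba-a1 -0.58 and Camp -0.27 without cells with 30 or more UMIs of another marker. Of 31 named or listed genes past 2-fold, 21 never changed sign and 24 were under 2-fold in at least 1 alternative.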

Other observations

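Short transcripts had lower ratios than long ones in B cells. Over 29 genes whose longest annotated transcript had at most 500 bases, hyperoxia against room air gave a median log2 ratio of -0.66 in B cells, -0.56 in T cells and -0.44 in ECs. Over 273 genes above 8000 bases it was 0.17 in B cells, 0.20 in T cells and -0.07 in ECs. Without ribosomal protein genes, the shortest class held 19 genes with a median of -0.60 in B cells. Across 3025 genes, Spearman's rho between length and log2 ratio in B cells was 0.306, a description with no test, where genes share a library and are not independent. Of 83 ribosomal protein genes, 63 were below 0 in B cells, with a median of -0.16. Among the 10 lowest genes named above, Gm11808 had log2 ratios of -1.43 in B cells, -1.44 in T cells and -1.57 in ECs, and Crip1 had -1.12, -0.72 and 0.07. The part of transcript length in the counts of lower genes was not tested.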
